A study of Mus musculus with 12 samples.

Results

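Glutathione transferases were described here through 10 of the 25676 genes in a liver expression table: *Gsta1*, *Gsta2*, *Gsta3*, *Gsta4* and *Gm3776* of the alpha class, *Gstm1*, *Gstm2* and *Gstm3* of the mu class, *Gstp1* of the pi class and *Gstt1* of the theta class. The genes were picked by name, and the family was chosen from the knockout minus wild-type difference in these same libraries, in which *Gm3776* and *Gsta1* stand near the top. That difference is therefore given below as a description, with no p-value for any of the 10, while the sex comparisons, which did not enter the choice, were tested. All 10 genes had a mean of at least 0.5 TPM (transcript abundance per length, scaled to the same sum in each library) over the samples and so were among the 12278 genes tested.

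RNA was sequenced from whole livers of 12 mice, 1 library per mouse, in 4 groups of 3: WT males, WT females, KO males and KO females. All mice were on a C57BL/6 background and 3 to 4 months old. The KO mice carried Foxa3-Cre and lacked YAP1, a co-activator of the TEAD transcription factors; the *Foxa3* promoter is active in the embryonic endoderm that gives rise to hepatocytes and bile duct cells, so other liver cells keep the gene. The WT label names no Cre or floxed allele.

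Glutathione transferases join the tripeptide glutathione to reactive, fat-soluble compounds, which makes them soluble and ready for export in bile or urine. The alpha, mu, pi and theta classes are families of cytosolic enzymes with overlapping substrates, and in liver they are among the abundant proteins of hepatocytes. Many of their genes are switched on by NRF2, a sensor system for electrophiles, and by receptors for foreign compounds, and in mice several differ between the sexes.

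*Yap1* itself was at 23.0 to 34.9 TPM in the 6 WT livers and at 0.994 to 3.11 TPM in the 6 KO livers, so the genotype labels matched. The Y-linked genes *Ddx3y* (23.8 to 33.2 TPM in males, at most 0.0817 TPM in females), *Eif2s3y*, *Kdm5d* and *Uty* were each higher in all 6 male than in all 6 female livers, so the sex labels matched too. WT male replicate 2 stood apart by name: its label alone carries a letter after the animal number, and its library number in the column headers lies far from those of the other 11 libraries, although all 12 name the same run and lane. It also had the smallest scaling factor (0.716). Without it the KO minus WT differences of the 10 genes kept their signs, the *Gstp1* sex difference in WT was 3.33 (limma adjusted p = 5.84e-06) and its interaction -3.59 (limma adjusted p = 9.86e-05), whereas the *Gstt1* call given below was lost. Reads, here and below, were recovered from the steps of the TPM values, as the smallest whole numbers that fit, and were not counted directly. They summed to between 19652110 and 27827163 per library. TPM are shares of a library, and the median log2 difference between KO and WT over all tested genes was 0.35. After the libraries were rescaled by median-of-ratios factors that median was -0.04. Hepatocyte markers (*Alb*, *Apoa1*, *Ttr*, *Tat*, *Serpina1a*) were present in every liver, with a summed level of 79129 to 106010 TPM in WT and 59487 to 84917 TPM in KO, and 2 of the 5 fell in KO (3 on rescaled values). All 5 macrophage markers rose (sum 37.3 to 121 TPM in WT, 175 to 333 TPM in KO), and so did 3 of 5 stellate cell and fibroblast markers (sum 14.7 to 30.8 TPM in WT, 46.6 to 116 TPM in KO). On rescaled values 2 of these stellate cell and fibroblast markers rose and 1 fell. The 60% of them that rose as deposited is near the share of all genes. Of 6 bile duct markers 4 were tested: *Spp1* and *Sox9* rose, *Epcam* fell and *Krt19* did not pass the test. The sum of these markers (27.7 to 58.5 TPM in WT, 252 to 713 TPM in KO) was mostly *Spp1* (21.9 to 52.5 and 232 to 702 TPM). Both tested neutrophil markers, *S100a8* and *S100a9*, rose as deposited (1.48 and 1.43, limma adjusted p = 0.0194 and 0.0382) but did not pass the test on rescaled values (limma adjusted p = 0.104 and 0.179), and 1 of 4 endothelial markers, *Kdr*, fell (-0.62, limma adjusted p = 0.0441). The part of these shifts in the results below was not tested, and in whole tissue fewer cells of a type and less RNA per cell cannot be told apart. The labels do not say more about the mice than 1 library each, so p-values measure the spread between these samples.

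The alpha-class genes other than *Gsta3* lie close together on chromosome 9 (build GRCm38, GENCODE annotation): *Gsta4* at chr9:78182774-78209349, *Gsta1* at chr9:78230656-78242684 and *Gm3776* at chr9:78257129-78269166 on the plus strand, and *Gsta2* at chr9:78331018-78355788 on the minus strand. *Gsta3* lies alone on chr1:21240589-21265661. *Gm3776* carries a systematic name only, but its coding sequence has the same 672 bases in length as that of *Gsta1* and differs from it at 2 of them, T25C and C591T (*Gsta1* base first, counted from 1 at the A of the start codon), an identity of 99.7%. The stretches around these bases are shown because they are the coding positions where a read can tell the pair apart; of the 100-base windows of the *Gsta1* transcript, 71.3% occur unchanged in that of *Gm3776*. Capitals mark the bases that differ from *Gsta1*, and *Gsta2* is added for comparison, first for coding bases 5 to 45 and then for coding bases 571 to 611.
Gsta1 bases 5 to 45: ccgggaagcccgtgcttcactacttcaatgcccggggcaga
Gm3776 bases 5 to 45: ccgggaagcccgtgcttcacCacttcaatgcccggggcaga
Gsta2 bases 5 to 45: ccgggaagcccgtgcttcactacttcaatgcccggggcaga
Gsta1 bases 571 to 611: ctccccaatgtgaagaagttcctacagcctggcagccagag
Gm3776 bases 571 to 611: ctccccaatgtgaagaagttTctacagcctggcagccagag
Gsta2 bases 571 to 611: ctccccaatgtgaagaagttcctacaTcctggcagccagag

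The coding sequence of *Gsta2* was 97.5% identical to that of *Gsta1*, whereas *Gsta3* (73.6%) and *Gsta4* (65.5%) were far from it. Of all 100-base windows in the *Gsta1* transcript, 81.8% occur letter for letter in the transcript of another gene, and the share was 85.5% for *Gm3776* and 35.0% for *Gsta2*. It was 0% for *Gsta3*, *Gsta4* and *Gstt1*. Among the mu genes it was 9.05% for *Gstm1*, 0.622% for *Gstm2* and 13.8% for *Gstm3*, and for *Gstp1* it was 52.8%, shared with its neighbour *Gstp2*. How the authors assigned such reads is not given in the sources used here. The single values of *Gsta1*, *Gm3776* and *Gsta2* are thus uncertain as a split, and their sum is given beside them; the same limit holds for *Gm10639*, a further copy described below, and for *Gstp1* and *Gstp2*. The values of *Gsta3*, *Gsta4* and *Gstt1* do not share this limit.

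The 250 bases before the start of *Gsta1*, *Gm3776*, *Gsta2* and *Gsta3* follow (RefSeq, build GRCm38.p6, each on the strand of its gene, before the start that RefSeq gives), because the first 3 were all far higher in KO and the last was lower. For *Gsta2* that start lies 8643 bases inside the GENCODE gene given above, 13 bases from the nearest start of a GENCODE coding transcript, and for the other 3 it lies within 13 bases of the GENCODE gene start. The table of promoters matched 9 of the 10 genes, all but *Gsta4*. Capitals mark TTCNNNGAA, the element of STAT factors, in *Gsta1* and *Gm3776*, and TGACNNNGC, the core of the antioxidant response element bound by NRF2, in *Gsta3*; *Gsta2* holds neither in this window and is in lower case throughout.
Gsta1, chr9:78230419-78230668, plus strand: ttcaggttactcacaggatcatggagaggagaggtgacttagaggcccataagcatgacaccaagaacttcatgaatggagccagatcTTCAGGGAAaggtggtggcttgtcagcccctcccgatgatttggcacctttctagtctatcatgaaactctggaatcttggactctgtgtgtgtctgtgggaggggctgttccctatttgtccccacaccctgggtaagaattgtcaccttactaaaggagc
Gm3776, chr9:78256879-78257128, plus strand: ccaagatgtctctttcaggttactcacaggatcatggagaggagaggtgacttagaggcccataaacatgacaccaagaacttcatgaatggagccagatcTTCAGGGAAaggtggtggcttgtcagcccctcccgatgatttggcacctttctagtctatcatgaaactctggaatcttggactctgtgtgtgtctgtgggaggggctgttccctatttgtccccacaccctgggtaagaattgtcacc
Gsta2, chr9:78347146-78347395, minus strand: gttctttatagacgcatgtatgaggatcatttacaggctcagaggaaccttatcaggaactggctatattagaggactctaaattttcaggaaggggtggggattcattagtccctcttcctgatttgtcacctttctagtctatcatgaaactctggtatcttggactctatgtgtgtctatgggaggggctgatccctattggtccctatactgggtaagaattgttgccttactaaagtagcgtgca
Gsta3, chr1:21240335-21240584, plus strand: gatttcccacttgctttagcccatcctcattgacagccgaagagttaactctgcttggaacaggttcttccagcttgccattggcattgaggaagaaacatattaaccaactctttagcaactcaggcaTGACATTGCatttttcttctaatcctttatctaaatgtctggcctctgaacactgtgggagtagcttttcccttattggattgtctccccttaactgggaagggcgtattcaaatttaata

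The upstream sequences of *Gsta1* and *Gm3776* aligned with 236 identical bases of 237 (99.6%), and those of *Gsta1* and *Gsta2* with 182 of 251 (72.5%). Each window of 300 bases (250 before to 50 after the start) was searched on both strands for 5 motifs. TGACNNNGC was found in 12.39% of all 32851 promoters and, among the genes described here, in *Gsta3* alone, 121 bases before the start. TTCNNNGAA was found in 8.298% of promoters, and in *Gsta1* (162 bases before the start) and *Gm3776* (149 bases before) as the same letters, TTCAGGGAA. GGAATG, the element of the TEAD partners of YAP1, was found in 14.66% of promoters and here in *Gstm2* alone. GCGTG, the core element of the aryl hydrocarbon receptor, was found in 32.39% of promoters and in 5 of the genes, *Gsta1*, *Gm3776*, *Gsta2*, *Gstm1* and *Gstp1*. TGANTCA, the AP-1 element, which shares its first letters with the antioxidant core so that 1 site can match both, was found in 7.808% of promoters and here in *Gstp1* alone, 74 bases before the start. These matches describe letters in short windows; binding was not measured.

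*Gsta1*, an alpha-class transferase that also reduces organic peroxides, was barely present in WT livers and abundant in KO livers. It stood at 7.40, 1.68 and 5.51 TPM in the 3 WT males and at 1.55, 3.34 and 2.35 TPM in the 3 WT females. In KO it reached 335, 213 and 192 TPM in males and 360.0, 353 and 263 TPM in females. The lowest KO liver thus lay more than an order of magnitude above the highest WT liver, and the mean was 78.6-fold higher in KO (log2 difference 6.05, SE 0.29). The WT values rest on 14 to 71 recovered reads per library, the KO values on 1463 to 3620.

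*Gm3776* followed the same course. Its level was 5.42, 1.21 and 3.07 TPM in WT males, 1.11, 2.05 and 0.65 TPM in WT females, 328, 206 and 192 TPM in KO males and 308, 309 and 267 TPM in KO females. No KO value came near a WT value, and the KO mean was 119-fold higher (log2 difference 6.50, SE 0.28), from 8 to 52 reads in each WT library. The ratio of *Gsta1* to *Gm3776* lay between 0.984 and 1.17 in the KO livers and between 1.36 and 3.62 in the WT livers.

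*Gsta2*, the other member of the near-identical trio, started from a higher level. It was at 41.0, 14.8 and 30.8 TPM in WT males, 30.0, 25.4 and 19.1 TPM in WT females, 244, 164 and 182 TPM in KO males and 288, 251 and 261 TPM in KO females. All KO livers were again above all WT livers, by 8.62-fold in the means (log2 difference 3.10, SE 0.22). In WT there was 5.54 to 19.3 times as much *Gsta2* as *Gsta1*, and in KO 0.712 to 0.994 times as much, with the read split between them uncertain. In each KO group the ranges of their levels overlapped, so no order is drawn there. The sum of the trio, which does not depend on how reads were split among them, was 17.7 to 53.8 TPM in WT and 565 to 956 TPM in KO. A further copy in the cluster, *Gm10639*, 98.5% identical to *Gsta2* in coding sequence, was at 0.0238 ± 0.0584 TPM in WT and 1.78 ± 1.15 TPM in KO (SD, n = 6), from 0 to 2 reads per WT library and 5 to 40 per KO library. Of its 100-base windows 21.0% also occur in *Gsta2* and 17.0% in *Gm3776*, genes far above it in KO, so its own level is uncertain.

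*Gsta4*, which handles 4-hydroxynonenal and related products of lipid peroxidation, shares no 100-base window with another gene and was also higher in KO. Its level was 79.6, 48.5 and 73.0 TPM in WT males, 83.0, 69.6 and 74.2 TPM in WT females, 238, 189 and 163 TPM in KO males and 297, 238 and 273 TPM in KO females. The genotypes did not overlap, and the KO mean was 3.27-fold higher (log2 difference 1.68, SE 0.14, and 1.22 after rescaling).

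*Gsta3*, the main alpha-class transferase of the normal liver and in mice the one that detoxifies aflatoxin epoxide, went the other way. It was at 1333, 1056 and 1207 TPM in WT males, 1162, 1304 and 1306 TPM in WT females, 802, 793 and 714 TPM in KO males and 842, 878 and 821 TPM in KO females. Every KO liver lay below every WT liver, with a KO mean 0.658 times that of WT (log2 difference -0.60, SE 0.09, and -1.07 after rescaling).

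*Gsta3* made up most of the alpha class in WT, and the sum of the 5 alpha genes moved the opposite way to it as deposited. The sum was 1466, 1122 and 1319.7 TPM in WT males, 1277, 1404 and 1402 TPM in WT females, 1947, 1565 and 1442 TPM in KO males and 2095, 2028 and 1885 TPM in KO females. KO male replicate 3 fell within the WT range, and the other KO livers lay above it. The log2 difference of the sum was 0.45 as deposited and -0.02 after rescaling, so its direction depends on the scale, unlike that of each single alpha gene. The make-up of the sum differed between the genotypes: *Gsta1* was 0.00134 to 0.00555 times the level of *Gsta3* in WT and 0.268 to 0.427 times in KO.

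**Figure D1:**
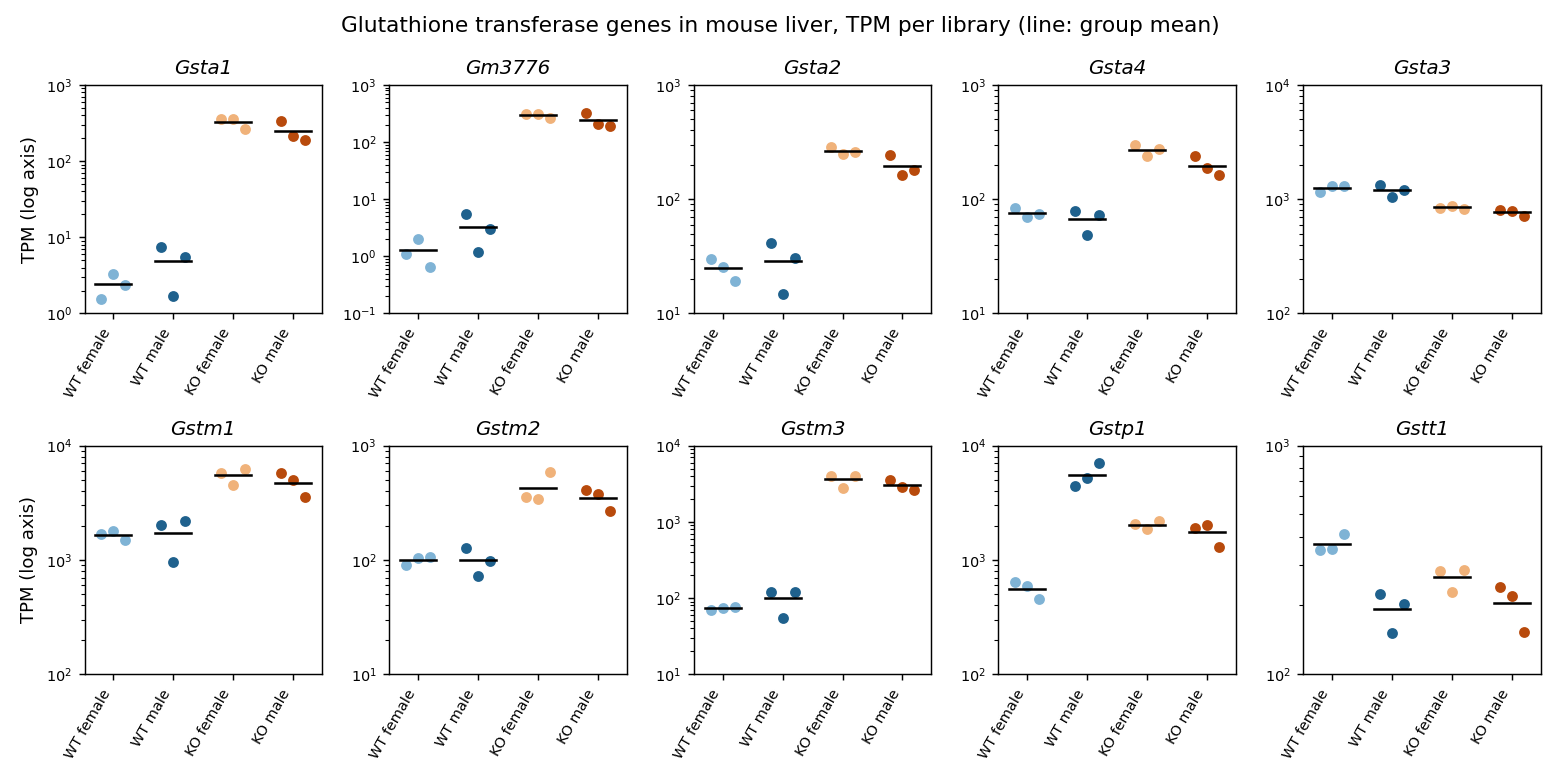
TPM of each of the 10 genes on a log axis, with 1 point per liver and a line at the mean of each group of 3. In *Gsta1*, *Gm3776*, *Gsta2*, *Gsta4* and the 3 *Gstm* genes all KO points lie above all WT points, in *Gsta3* all lie below, and in *Gstp1* and *Gstt1* they overlap.

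The mu-class genes form a cluster on the minus strand of chromosome 3, with *Gstm3* at chr3:107963696-107969283, *Gstm2* at chr3:107981702-107986453 and *Gstm1* at chr3:108012255-108017973. *Gstm1*, a major hepatic transferase, was at 2037, 968 and 2205 TPM in WT males, 1699, 1785 and 1504 TPM in WT females, 5727, 4962 and 3524 TPM in KO males and 5795, 4549 and 6301 TPM in KO females. It was the most abundant of the 10 genes in both KO groups and in WT females. Its KO mean was 3.03-fold higher, with no overlap (log2 difference 1.62, SE 0.20, and 1.15 after rescaling).

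*Gstm3* was a minor transcript in WT and the second most abundant of the 10 in KO. It stood at 120.0, 55.3 and 122 TPM in WT males and 69.7, 75.1 and 76.7 TPM in WT females, against 3550.4, 2871 and 2627 TPM in KO males and 3955, 2816 and 4035 TPM in KO females. The KO mean was 38.3-fold higher (log2 difference 5.28, SE 0.20), from 890 to 2087 reads per WT library. Relative to *Gstm1* in the same liver, its level went from 0.041 to 0.0589 in WT to 0.579 to 0.746 in KO.

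*Gstm2* was at 128, 71.8 and 97.7 TPM in WT males, 90.5, 103 and 105 TPM in WT females, 410.3, 374 and 269.8 TPM in KO males and 356, 344 and 584 TPM in KO females. The genotypes did not overlap and the KO mean was 3.92-fold higher (log2 difference 1.94, SE 0.17, and 1.48 after rescaling). Its ratio to *Gstm1* overlapped between the genotypes, at 0.0443 to 0.0742 in WT and 0.0614 to 0.0926 in KO. These 3 mu genes together summed to 1886 ± 473 TPM in WT and 8842 ± 1684 TPM in KO (SD, n = 6). Other mu genes moved less. *Gstm4*, *Gstm6* and *Gstm7* rose as deposited, but their genotypes overlapped. On rescaled values they did not pass the test (0.22, 0.02 and 0.16, limma adjusted p = 0.343, 0.921 and 0.426). *Gstm5* rose on both scales without overlap as deposited (1.12, and 0.69 rescaled).

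*Gstp1* at chr19:4035407-4037985, on the minus strand, encodes the pi-class transferase, which in the mouse liver is known for its higher level in males. It stood at 4471, 5216 and 7036 TPM in WT males and at 638, 593 and 452 TPM in WT females. In KO it was at 1911, 2011 and 1298 TPM in males and 2081, 1852 and 2188 TPM in females. The sexes lay far apart in WT and overlapped in KO, where all 6 livers fell between the WT females and the WT males. The KO to WT ratio of means was 0.312 in males and 3.64 in females (log2 differences -1.68 and 1.87, SE 0.21 for both), and these opposite values average to 0.10 over the sexes. The sign of that average is not stable: it was -0.37 rescaled, -0.36 with limma voom on recovered reads, -0.32 with the lowest animal numbers left out and -0.17 to 0.38 when 1 library was left out, and the ratio of mean TPM over both sexes was 0.616.

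The sex difference in WT and its change with genotype were tested for all genes. *Gstp1* was 9.93-fold higher in WT males than in WT females, with no overlap (log2 difference 3.30, SE 0.21, limma adjusted p = 6.66e-07). In KO the male minus female difference was -0.25 (SE 0.21, limma adjusted p = 0.876). The genotype by sex interaction, the male KO minus WT difference less the female one, was -3.55 (SE 0.30, limma adjusted p = 2.63e-05). On the rescaled values it was -3.78 (limma adjusted p = 7.17e-05), and over the settings tried its adjusted p lay between 2.63e-05 and 0.000447. Rescaling moved the KO minus WT difference in males to -2.26 and in females to 1.52, so both directions held. The 100 bases that hold the AP-1 match of this promoter are shown with the match in capitals; the RefSeq start used lies 73 bases inside the GENCODE gene.
Gstp1, chr19:4037979-4038078, minus strand: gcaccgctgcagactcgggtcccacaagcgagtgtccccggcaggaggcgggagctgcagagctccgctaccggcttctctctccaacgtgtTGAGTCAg

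*Gstp2*, the neighbour that shares 52.8% of the 100-base windows of *Gstp1*, was a small fraction of it: *Gstp1* was 88.3 to 893 times as abundant. *Gstp2* was at 12.5 ± 7.06 TPM in WT males, 3.20 ± 0.572 in WT females, 15.0 ± 2.09 in KO males and 18.6 ± 5.34 in KO females (SD, n = 3). It too was higher in WT males than in WT females (log2 difference 1.53, SE 0.35, limma adjusted p = 0.0251), but its interaction did not pass the test (-1.80, SE 0.49, limma adjusted p = 0.198). How much of the *Gstp2* value comes from *Gstp1* reads was not tested.

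**Figure D2:**
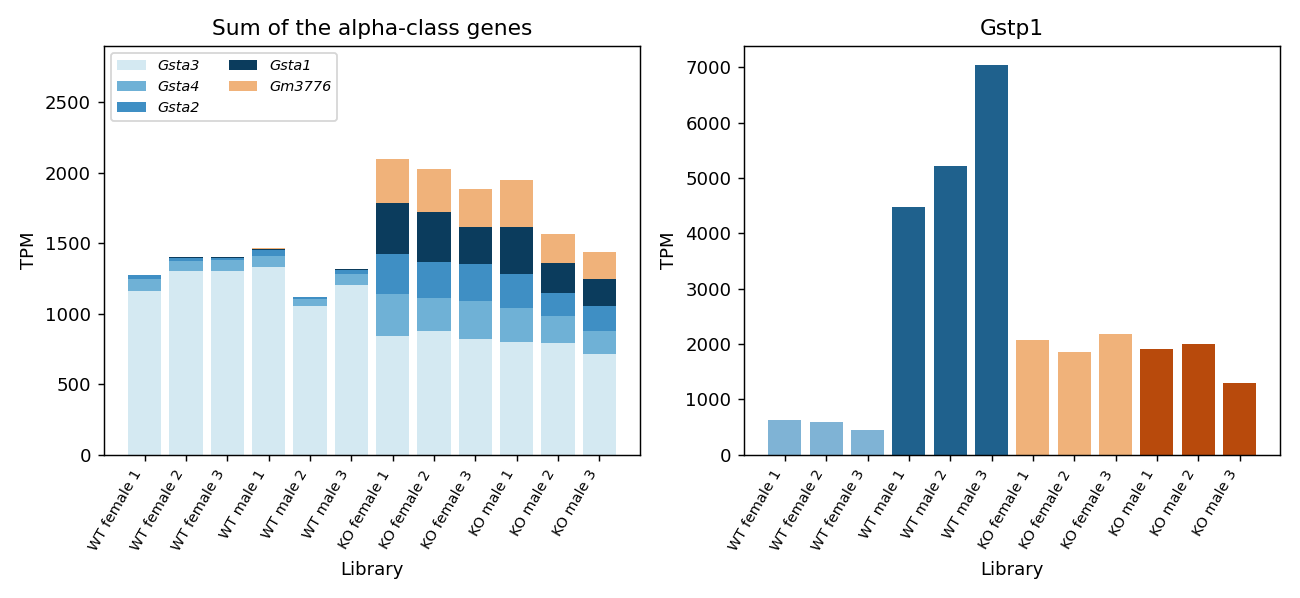
Left, TPM of the 5 alpha-class genes stacked for each liver; right, TPM of *Gstp1* for each liver, both on axes from 0. *Gsta3* fills most of the bar in WT and shares it with 4 other genes in KO, and the 3 WT male bars of *Gstp1*, at 4471 to 7036, stand above all others.

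*Gstt1* at chr10:75783813-75798584, on the minus strand, encodes a theta-class enzyme that acts on small halogenated compounds. It was at 224, 152 and 204 TPM in WT males and 350.0, 354 and 409 TPM in WT females, and in KO at 242, 219.6 and 153 TPM in males and 282, 229 and 285 TPM in females. The WT sexes did not overlap, and WT females were 1.92-fold above WT males (male minus female log2 difference -0.95, SE 0.19, limma adjusted p = 0.0132). On rescaled values the difference was -0.73 and did not pass the test (limma adjusted p = 0.0771), nor did it without WT male replicate 2 (0.0575) or WT female replicate 3 (0.0504). In KO the difference was -0.39 (SE 0.19, limma adjusted p = 0.859), while the genotype by sex term of 0.56 (SE 0.27) had a limma adjusted p = 0.59. Over both sexes the genotypes overlapped, with a KO mean 0.833 times that of WT (log2 difference -0.20, and -0.67 after rescaling). In females all KO livers lay below all WT livers (log2 difference -0.49, SE 0.19), and in males they overlapped (0.08, SE 0.19, and -0.50 after rescaling).

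**Figure D3:**
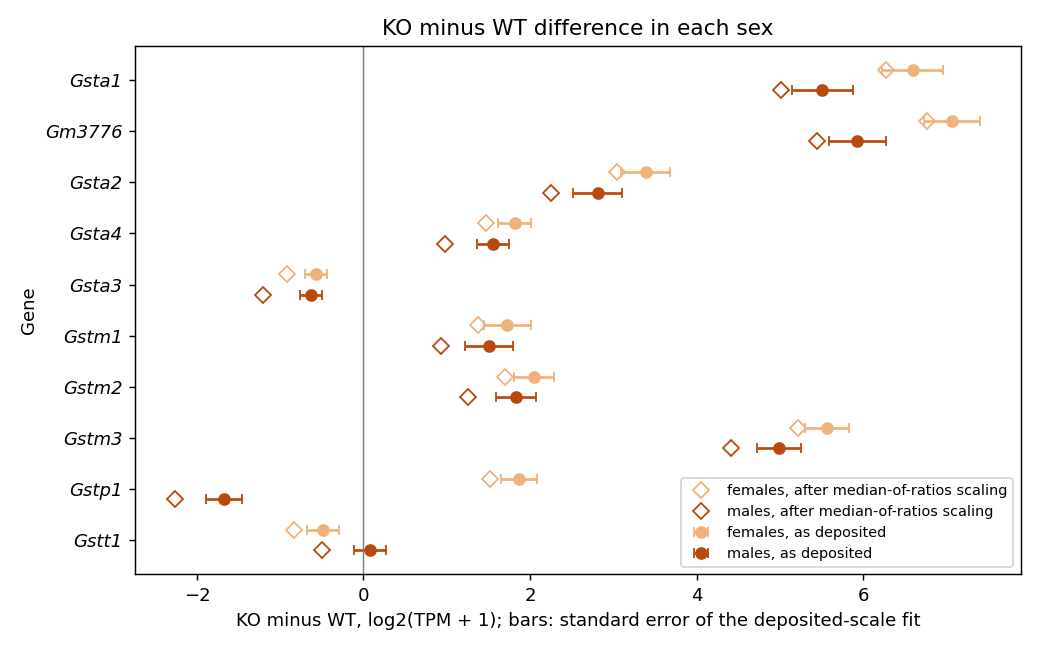
KO minus WT difference on the log2(TPM + 1) scale for each gene, in females and males, with standard errors (filled) and after rescaling (open). Every gene but *Gstp1* and *Gstt1* has both sexes on the same side of 0 on both scales, and *Gstp1* lies at -1.68 in males and 1.87 in females.

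Counted over the 10 genes as a description, 7 passed an adjusted p of 0.05 with KO higher (*Gsta1*, *Gm3776*, *Gsta2*, *Gsta4* and the 3 *Gstm* genes), where 50.1% of all tested genes did, and *Gsta3* alone passed with KO lower, where 4.82% did. On rescaled values the same 7 were higher, against 20.9% of all genes, and *Gsta3* and *Gstt1* were lower, against 18.7%. The same 7 had all KO livers above all WT livers, as had 28.7% of all genes, and *Gsta3* had all below, as had 1.88%. Since the genes were chosen on this contrast, nothing is read from these counts. In the authors' deposited table the log2 fold change was 6.25 for *Gm3776*, 5.75 for *Gsta1*, 4.79 for *Gstm3*, 2.65 for *Gsta2*, 1.42 for *Gstm2*, 1.34 for *Gsta4*, 1.21 for *Gstm1*, -0.42 for *Gstt1*, -1.10 for *Gsta3* and -1.45 for *Gstp1*. The scaling and terms behind these values are not given in the sources used here. For *Gstp1* the value lies outside the -0.37 to 0.38 found here over the settings tried, where the sexes went opposite ways.

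Outside *Gstp1* and *Gstt1*, no sex comparison of the 10 genes passed the test. In WT, 1 of the 10 genes (*Gstp1*) was called higher in males, where 1.14% of all tested genes were, and 1 (*Gstt1*) higher in females, where 4.6% were. The lean of all genes to females depends on the scale: 140 genes were called higher in males and 565 in females as deposited, and 259 (2.11%) and 278 (2.26%) on rescaled values, where *Gstp1* was still called and *Gstt1* was not. As deposited these counts also turn on single libraries, with 85 and 205 without WT male replicate 2 and 371 and 1325 without WT male replicate 3. In KO limma called 0 of the 10, where 0.0814% of all genes were called (10 genes); *Gsta4* alone had an unadjusted p under 0.05, and limma voom on recovered reads also called 0. Beyond the called genes, *Gm3776* had an unadjusted p under 0.05 for sex in WT and for the interaction with limma, and *Gstm3* had one for both with limma voom. All 10 genes had a lower mean log2 level in KO males than in KO females, by -0.14 to -0.46, and on rescaled values too. Over all tested genes 50.3% were lower in KO males as deposited. The 10 differences come from the same livers and are not independent. KO male replicate 3 had the lowest value of the KO males in each gene but *Gsta2*, and the largest scaling factor (1.33). None of the 10 changed sign under any setting tried, leaving out this library included. In WT, 5 of the 10 had a lower mean in males (71.0% of all genes), and 1 of the 10 on rescaled values (51.7% of all genes). The interaction was called for 1 of the 10 (*Gstp1*), against 0.912% of all genes. For *Gsta1* it was -1.09 (SE 0.51, limma adjusted p = 0.575) and for *Gm3776* -1.14 (SE 0.48, limma adjusted p = 0.51), which did not pass the test.

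For the sum of the alpha genes, the male minus female log2 difference was -0.07 in WT (exact permutation test, two-sided p = 0.7) and -0.29 in KO (exact permutation p = 0.2), and the interaction was -0.22 (exact permutation p = 0.295 over 400 arrangements). With 3 against 3 livers the smallest p such a test can give is 0.1.

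The levels of the 10 genes, which TPM express per transcript length, fell into a different order in each WT group and into nearly one order in KO. In WT males *Gstp1* (5574 ± 1319 TPM, SD, n = 3) led, apart from *Gstm1* and *Gsta3*, whose ranges overlapped. In WT females *Gstm1*, *Gsta3*, *Gstp1*, *Gstt1* and *Gstm2* followed each other without overlap between neighbours. In both KO groups the order was *Gstm1*, *Gstm3*, *Gstp1*, *Gsta3* and *Gstm2*; of these neighbours, *Gstm1* and *Gstm3* overlapped in KO males. Below them in mean, *Gsta1*, *Gm3776*, *Gsta2*, *Gsta4* and *Gstt1* lay between 153 and 360.0 TPM in KO and did not differ beyond their ranges from 1 neighbour to the next. *Gstm2* and *Gsta1* also overlapped in both KO groups, so no order is drawn between them.

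As shares of the summed TPM of the 10 genes, *Gstp1* took 61.9% ± 8.1 in WT males, 13.6% ± 2.0 in WT females, 14.9% ± 1.7 in KO males and 14.8% ± 0.79 in KO females (SD, n = 3). *Gstm3* took 1.09% ± 0.35 and 1.79% ± 0.13 in WT males and females, and 26.0% ± 2.2 and 25.8% ± 1.7 in KO males and females. *Gsta3* went from 13.6% ± 2.4 and 30.5% ± 2.5 in WT males and females to 6.70% ± 0.93 and 6.20% ± 1.09 in KO. The make-up of the 2 KO groups was close in each of these genes, whereas the shares in the WT sexes did not overlap for *Gstp1*, *Gstm3* (0.729% to 1.42% in males, 1.69% to 1.94% in females) or *Gsta3*. A share also depends on the other genes in the total. In level, *Gstm3* (male minus female log2 difference 0.33, limma adjusted p = 0.433) and *Gsta3* (-0.07, limma adjusted p = 0.744) did not pass the test for sex in WT. The summed level itself was 9005 ± 1767 TPM in WT males, 4130.0 ± 184 in WT females, 11702 ± 2252 in KO males and 13887 ± 1827 in KO females (SD, n = 3).

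**Figure D4:**
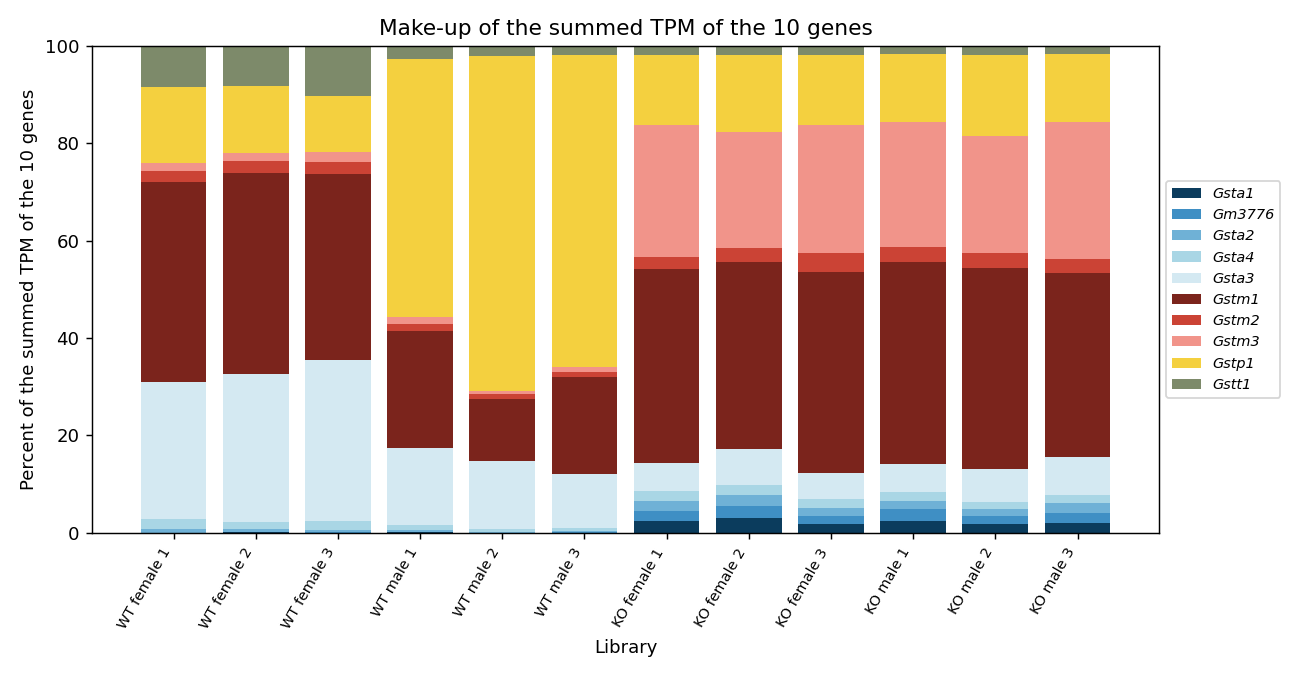
Percent of the summed TPM of the 10 genes taken by each gene, 1 bar per liver. *Gstp1* takes 52.9% to 68.8% in WT males and 11.4% to 16.8% in every other liver, and *Gstm3* takes 23.8% to 28.2% in each KO liver and at most 1.94% in each WT liver.

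The counts in the lists below stand beside those over all tested genes, of which 50.1% rose and 4.82% fell as deposited, and 20.9% rose and 18.7% fell on rescaled values. Of 18 genes tested in a list of other transferases and related genes, 11 rose in KO (61.1%) and 1 fell (5.56%). Their median log2 difference was 0.57 (0.35 over all tested genes), and on rescaled values 5 rose and 5 fell (27.8% each). The largest rises on the log2(TPM + 1) scale, which understates those of low genes, were in *Mgst3*, a microsomal transferase (log2 difference 1.83, SE 0.30, limma adjusted p = 0.000197) and *Alox5ap* (1.74, SE 0.18, limma adjusted p = 4.07e-06), followed by *Gm10639* (1.34) and *Gstp2* (1.30). *Alox5ap*, the 5-lipoxygenase-activating protein, is in the list as a related gene and not as a transferase. The *Gstp2* rise did not pass the test on rescaled values (0.88, limma adjusted p = 0.0907), and by sex it was 2.20 in females (limma adjusted p = 0.000434) and 0.40 in males (limma adjusted p = 0.355). *Gstz1*, which degrades tyrosine breakdown products, was the one that fell (-0.32, SE 0.10, limma adjusted p = 0.0135). *Mgst3* was the only one of these whose interaction was called, opposite in sign to that of *Gstp1* (1.77, SE 0.36, limma adjusted p = 0.0363, and 0.0747 on rescaled values). It stood at 9.82 ± 4.31 TPM in WT males, 41.9 ± 3.05 in WT females, 65.9 ± 8.25 in KO males and 81.6 ± 2.34 in KO females (SD, n = 3).

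Of 9 tested genes of glutathione synthesis and precursor supply, 5 rose and 1 fell (median log2 difference 0.41), and 1 rose and 2 fell on rescaled values. The share that rose was 55.6%, close to that of all genes, and 11.1% rescaled, below it. *Gss*, which adds the last amino acid, rose on both scales (1.43, SE 0.13, limma adjusted p = 1.29e-06, and 0.97 rescaled), and *Ahcy* of the methionine cycle fell on both (-0.83, SE 0.12, limma adjusted p = 9.43e-05, and -1.29 rescaled). *Gclm*, the modifier of the rate-limiting ligase, rose by 0.60 (SE 0.09, limma adjusted p = 7.65e-05) but by 0.14 on rescaled values (limma adjusted p = 0.237). Its catalytic partner *Gclc* was at 139 ± 50.3 TPM in WT and 183 ± 59.7 TPM in KO (SD, n = 6) and did not pass the test (limma adjusted p = 0.141). Of 11 genes of reduction and turnover 7 rose and the rest did not pass the test (63.6% rose; on rescaled values 5, or 45.5%, rose and 2, or 18.2%, fell), led by *Dpep1*, a dipeptidase of glutathione breakdown (2.10, SE 0.19), and *Pgd*, an NADPH source (2.06, SE 0.13). *Gsr*, which reduces oxidised glutathione, rose by 0.94 (SE 0.11, limma adjusted p = 1.32e-05).

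Of 15 peroxidases, glutaredoxins and related enzymes, 5 rose and 2 fell (4 and 7 on rescaled values). The share that rose, 33.3%, was below that of all genes as deposited, and on rescaled values 26.7% rose and 46.7% fell. The secreted peroxidase *Gpx3* was at 4.23 ± 1.51 TPM in WT and 82.0 ± 25.1 TPM in KO (SD, n = 6), and *Gpx2*, the gut-type enzyme, went from 0.0699 ± 0.0852 to 9.23 ± 4.17 TPM. *Gpx4*, which repairs oxidised membrane lipids, rose by 1.53 (SE 0.10, limma adjusted p = 4.46e-08). *Hagh*, a glyoxalase that releases glutathione, fell (-0.86, SE 0.13, limma adjusted p = 0.000138). Of 12 genes that export glutathione conjugates or turn them into mercapturic acids, 5 rose and 4 fell (41.7% and 33.3%), and 5 and 6 rescaled (41.7% and 50%). The exporters *Abcc5* (1.22), *Abcc3* (1.12), *Abcc4* (1.10) and *Abcc1* (0.75) rose. Of the other exporters, *Abcc2* (-0.13) and *Abcc6* (-0.23) did not pass the test as deposited and fell on rescaled values (-0.59 and -0.69, limma adjusted p = 0.00345 and 0.000608), and *Abcg2* passed on neither scale. The enzymes of the mercapturate steps *Kyat1* (-1.27), *Acy3* (-1.01) and *Acy1* (-0.66) fell.

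*Nat8*, which acetylates cysteine conjugates as the last mercapturate step, fell most of that list (-2.68, SE 0.42, limma adjusted p = 0.000135). It was at 31.5 ± 7.11 TPM in WT males, 2.18 ± 0.967 in WT females, 0.872 ± 0.168 in KO males and 0.284 ± 0.0745 in KO females (SD, n = 3). Its interaction was called, with the same sign as that of *Gstp1* (-2.83, SE 0.32, limma adjusted p = 0.000251), but both sexes fell, with log2 differences of -4.10 in males and -1.26 in females.

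Of 13 other genes known as targets of NRF2, 12 rose (92.3%), with a median log2 difference of 1.54 against 0.35 over all genes; on rescaled values 8 rose (61.5%) and 1 fell (7.69%) (median 1.07 against -0.04). *Nqo1* (2.40, SE 0.19, limma adjusted p = 3.44e-07), *Srxn1* (2.07, SE 0.17), *Hmox1* (1.93, SE 0.14) and *Ugdh* (1.92, SE 0.12) rose most, with all KO livers above all WT livers in each. *Me1* was the one that did not pass the test (-0.02, SE 0.16, limma adjusted p = 0.921), and on rescaled values it was the one that fell (-0.48, limma adjusted p = 0.0229). The shares hold for these 13 genes only, since other targets of NRF2 were counted in the lists above. Among those, *Gsr* and *Gpx2* rose on both scales and *Gclm* as deposited only. *Gclc* passed the test on neither scale, and *Abcc2* fell on rescaled values. *Nfe2l2*, which encodes NRF2, was at 39.2 ± 10.7 TPM in WT and 77.1 ± 27.7 TPM in KO (SD, n = 6); its rise of 0.94 (SE 0.23, limma adjusted p = 0.00347) became 0.48 on rescaled values (limma adjusted p = 0.0514).

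Among 18 regulators of transferase genes 11 rose and 1 fell (61.1% and 5.56%), but on rescaled values 2 rose and 5 fell (11.1% and 27.8%). *Ppara*, the fatty acid receptor, fell on both scales (-1.27, SE 0.21, limma adjusted p = 0.000257). *Ahr*, the receptor of aromatic compounds, and *Mafk*, a partner of NRF2, rose on both, by 0.99 (SE 0.16) and 0.92 (SE 0.16) as deposited and by 0.55 and 0.49 rescaled. These lists were compiled with earlier results of these data known, and list members were tested in the same fit as all genes. *Gstm4*, *Gstm5*, *Gstm6*, *Gstm7*, *Gstz1*, *Gclm*, *Gclc*, *Gsr*, *Hagh*, *Abcc1*, *Abcc2*, *Abcc4*, *Abcc6*, *Abcg2*, *Acy3*, *Acy1* and *Me1* fall outside the rule for naming genes and were named after their values were seen.

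**Figure D5:**
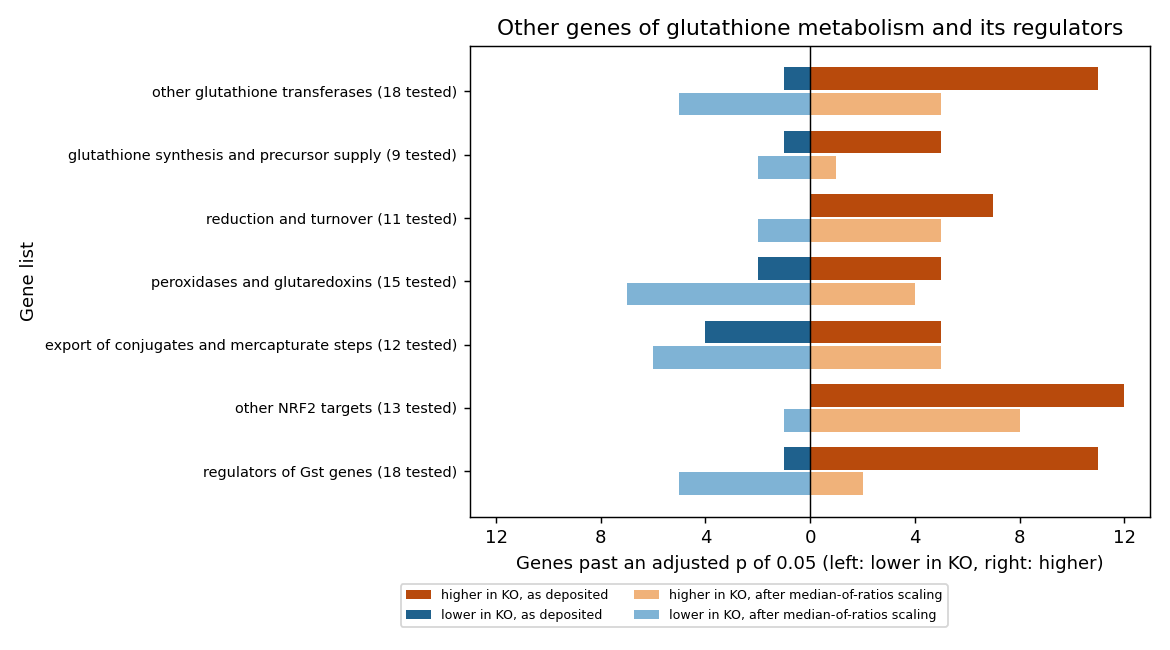
Number of genes in each list past an adjusted p of 0.05 in the KO minus WT comparison, higher in KO to the right and lower to the left, as deposited (dark) and rescaled (light). The NRF2 targets stand at 12 higher as deposited and 8 higher and 1 lower rescaled, and the regulators go from 11 higher to 2.

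The genes most like the alpha sum, by the root mean square difference of centred log2(TPM + 1) over the 12 livers, were *AW554918* (0.109), *Tada1* (0.123), *Atg101* (0.132), *Matn2* (0.134) and *Lrch1* (0.134), where the sum itself varied by 0.279 around its mean. This is a measure of likeness over livers that share genotype and library scale, and nothing further is drawn from it.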

How the data were processed

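Gene expression was measured by bulk RNA sequencing of whole liver in 12 mice. The authors deposited 1 table of TPM per gene and library, per the file headers; each column sums to 1000000. The submitters' processing notes name the build GRCm38 and the tool edgeR with no role; the aligner, the counting of shared reads and the use of strand are not given in the sources used here. The table also holds the authors' own KO against WT fold changes, quoted once. Each TPM column named 1 sample, and 0 columns were unmatched. Groups come from the sample titles.

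Values were taken as log2(TPM + 1), genes averaging under 0.5 TPM were dropped, and limma 3.58.1 was run under R 4.3.3 (eBayes with trend), two-sided, adjusted by Benjamini-Hochberg over 12278 genes, threshold 0.05. The genotype fit had sex as a covariate; sex differences and the interaction came from 1 model of the 4 group means. A fold change on this scale understates that of low genes. Fold ratios quoted are ratios of mean TPM. Alternatives were a pseudocount of 0.1, no filter, median-of-ratios scaling, leaving out each library, and leaving out the lowest animal numbers. Added after seeing the data: whole reads were recovered from the steps of the TPM values (all 17332 genes above 0, within 0.02 reads, as the smallest whole numbers) and fitted with limma voom. The scripts were tested on simulated data.

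The members and lists were chosen with earlier results of these data known. Genes outside the 10 were named as up to 4 per list with the largest called difference, those a sentence turns on, and the 5 most like the alpha sum. Sequences are from GENCODE M21 (GRCm38) and RefSeq (GRCm38.p6), read with Python 3.11.15 and Biopython 1.88.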

Additional observations from a re-analysis of the deposited data

Results flagged for a closer look

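*Gsta4* in WT was flagged because 1 liver lay far from the other 5: WT male replicate 2 had 48.5 TPM, against 69.6 to 83.0 TPM in the others. The same liver had the lowest value of the 3 WT males in 9 of the 10 genes, all but *Gstp1*, the smallest scaling factor of all libraries (0.716), and a label and library number unlike those of the other 11 libraries. The part of this in the value was not tested. *Gstp1* in KO was flagged because KO male replicate 3, at 1298 TPM, lay far below the other 5 KO livers (1852 to 2188 TPM); without it the KO minus WT difference of *Gstp1* was 0.38 in place of 0.10. Of 22 groups of values looked at in this way, chance flags about 1 in 20.

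The KO minus WT difference of *Gstp1* was flagged because it differed between the sexes, by -3.55 in males less females on the log2 scale (limma adjusted p = 2.63e-05). All 3 KO males lay below all 3 WT males, and all 3 KO females above all 3 WT females.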

How the results depend on the processing

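Of the members' results under the alternatives, 633 kept their direction and their side of the threshold (for the untested KO minus WT difference, stayed within the spread). A further 24 changed sign with no call on either side: 16 sex differences in WT (of *Gsta2*, *Gsta3*, *Gsta4*, *Gstm1* and *Gstm2*, such as -0.07 to 0.15 for *Gsta3* on rescaling), 2 interactions and 6 KO minus WT differences of *Gstp1*. Another 18 moved by more than the spread, 3 of them to the other sign (all *Gstp1*), and 5 lost the call, all for the sex difference of *Gstt1* in WT: -0.73 rescaled (limma adjusted p = 0.0771), -0.74 with limma voom on recovered reads (0.0741), -0.88 without WT female replicate 3 (0.0504), -0.79 without WT male replicate 2 (0.0575) and -0.88 with the lowest animal numbers left out (0.0603). The *Gstp1* interaction kept its call in all, from -3.35 to -3.78.

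Rescaling lowered the KO minus WT differences to 2.65 for *Gsta2*, 1.22 for *Gsta4*, 1.15 for *Gstm1*, 1.48 for *Gstm2*, 4.82 for *Gstm3*, -1.07 for *Gsta3*, -0.67 for *Gstt1*, -0.37 for *Gstp1* (-0.32 with the lowest animal numbers left out) and -0.02 for the alpha sum. A pseudocount of 0.1 gave 7.12 for *Gm3776*. The cause was not tested.

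The number of genes called for sex in WT was 705, and 290 to 1696 when 1 library was left out (1696 without WT male replicate 3) and 458 with the lowest animal numbers left out. For sex in KO it was 10, with 6 to 10 when 1 library was left out and 6 with limma voom. For the interaction it was 112, with 75 to 176 (176 without WT male replicate 3) and 70 with limma voom.

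No paired analysis was possible because the labels give no replicate numbers, and numbers in order of accession pair no samples. The 2 livers with the lowest animal numbers, WT female replicate 3 and KO female replicate 1, hold 1 sample per genotype. *Gsta1* and *Gm3776* in WT rest on few reads, which limits their fold.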

Other observations

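Single transferases were also compared with all other tested genes by the same measure of likeness as the alpha sum, a choice made after their values were seen. The genes closest to *Gsta1* were *Ubd* (0.447), *Sprr1a* (0.531), *Gipc2* (0.599), *Slpi* (0.649) and *Cib3* (0.701), where *Gsta1* itself varied by 3.07 around its mean. Those closest to *Gstm3* were *Ubd* (0.343), *Slpi* (0.42), *Gipc2* (0.434), *Sprr1a* (0.576) and *Mfge8* (0.582). *Ubd*, a ubiquitin-like modifier, was at a mean of 0.705 TPM in WT and 63.8 TPM in KO, and *Slpi*, a protease inhibitor of epithelia, at 1.27 and 108 TPM. For *Gstp1* the nearest gene was *Alas2*, the red-cell enzyme of heme synthesis, at 0.414 where *Gstp1* varied by 1.19. Genes with a large difference between genotypes are close to each other on this measure by construction.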
